A study of Homo sapiens with 24 samples.

Results

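The transcriptomes of SKBR3 cells driven into therapy-induced senescence (TIS) by blocking fatty acid synthesis were compared directly with those of SKBR3 cells given 4 senescence inducers of other kinds. SKBR3 is an established human breast cancer cell line with amplified ERBB2, and all groups are cultures of this 1 line. The lipogenesis inhibitors were ND-646, which inhibits acetyl-CoA carboxylase (ACC), and TVB-3166, which inhibits fatty acid synthase (FASN), each at 250 nmol/L. The other drugs were the DNA-damaging agents bleomycin (10 μmol/L) and doxorubicin (10 nmol/L), the CDK4/6 inhibitor palbociclib (1 μmol/L, spelled Palboclib in the labels), and the Aurora A kinase inhibitor alisertib (500 nmol/L). Treated cells received fresh drug on day 3 and were collected on day 7. Members were defined by drug label, with earlier results of these data known. They were 6 libraries of the lipogenesis inhibitors and 12 of the other drugs, out of 24 in all. Untreated day-0 and day-7 cells (3 libraries each) served as background. Doses differed between drugs, so a difference between the classes is also a difference between doses. The labels name a refeed on day 3 for every drug and none for untreated day-7 cells. Comparisons with day-7 cells may therefore also hold a difference in feeding. Nothing in the labels states that replicates of a drug were separate cultures, so the spread between libraries may be technical.

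ACC makes malonyl-CoA from acetyl-CoA, and FASN builds palmitate from both. Malonyl-CoA also blocks carnitine palmitoyltransferase 1, the entry of fatty acids into mitochondrial oxidation. Genes of fatty acid and cholesterol synthesis share transcription factors of the SREBP family, which are held in the endoplasmic reticulum when membrane sterol is plentiful. Liver X receptors (LXRs) respond to oxysterols and drive sterol export, and peroxisome proliferator-activated receptors (PPARs) respond to fatty acids and drive their oxidation.

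Counts per library ranged from 29405121 to 43705589 in the 18 drug-treated libraries, and were 29405121 to 31455795 in the 6 of the lipogenesis inhibitors. Levels are given as CPM, the counts of a gene scaled to the size of its library. Summed markers of SKBR3 cells (9 of 10 listed genes measured, ERBB2, GRB7 and keratins among them) reached 14509 to 22672 CPM in lipogenesis inhibitor cells, 12807 to 17526 with the other drugs, and 16864 to 22520 in untreated cells. Of the 9, 0 were called between the classes by edgeR's quasi-likelihood test, limma, or DESeq2, with 2 at an unadjusted p under 0.05. Of 15 markers of other cell types, 4 were measured, and they summed to 18.3 to 27.1 CPM, 20.2 to 64.8 CPM, and 16.5 to 20.1 CPM, respectively. VWF, at 0.0715 to 1.47 CPM over all libraries, was lower in lipogenesis inhibitor cells (log2 difference -2.40, adjusted p = 0.0391). COL1A1, CDH5, and ACTA2 did not pass, and the part of other cells in the results was not tested. ND-646 replicate 1 stood apart. It lay alone at an end of the 6 lipogenesis inhibitor libraries in 2388 of 14303 genes, against 23 to 59 genes for each of the other 5 libraries, and results are therefore also given without it.

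To test the classes with the drug as the unit, counts were summed over the 3 libraries of each drug, and 2 drugs were compared with 4. A gene was called if edgeR's quasi-likelihood test gave a Benjamini-Hochberg adjusted p under 0.05 and the classes differed by at least 2-fold. Differences are given below as log2, lipogenesis inhibitors minus other drugs, with the standard error of this fit. Of 14303 genes tested, 77 (0.538%) were higher and 84 (0.587%) were lower in lipogenesis inhibitor cells, which is 1.13% in all. At any fold, 155 (1.08%) were higher and 110 (0.769%) were lower, 1.85% in all. The called genes reached from 1.00 to 2.77 (median 1.33) among the higher ones and down to -4.92 (median -1.77) among the lower ones. The 6 and 12 libraries did not overlap in 73 of the higher and 83 of the lower genes, against 509 (3.56%) and 483 (3.38%) of all genes tested. The calls came from the same libraries, so this lack of overlap largely follows from the call and is no separate support. The largest higher differences belonged to the calcium-binding protein gene S100P and the sialyltransferase gene ST6GALNAC2, followed by BEX2, KLF2, and TSPAN1. The sterol genes ABCG1 and FDPS came after these, at 2.20 and 2.06. GJA5, a gap junction connexin, and ANGPTL4, an inhibitor of lipoprotein lipase, were the lowest.

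The number of calls depended on which other drugs were in the comparison. Leaving out doxorubicin or palbociclib left 0 calls by edgeR's quasi-likelihood test, with 723 and 887 genes at an unadjusted p under 0.05 and at least 2-fold and lowest adjusted p-values of 0.113 and 0.05, whereas 490 and 249 were called without bleomycin and alisertib. All 161 genes kept their sign in each of these 4 fits. They had been called with all 4 drugs present, so the kept sign largely follows from the call. Without ND-646 replicate 1, 40 higher and 54 lower genes were called, and without bleomycin replicate 1, 2, or 3 the calls numbered 103, 321, and 87. A second test did not rest on the spread between drugs: in a fit of the 18 libraries with 1 mean per drug, each lipogenesis inhibitor was compared with each other drug, and a gene counted if all 8 pairs, which share libraries, had the same sign and an adjusted p under 0.05. By this rule 331 genes were higher (2.36% of 14052 tested) and 302 were lower (2.15%), 4.5% in all, among them 75 of the 77 and 83 of the 84 genes called over drugs. Both rules used the same 18 libraries. The mean of the lipogenesis inhibitors differed from that of the other drugs beyond the spread between libraries in 997 genes (7.1%), 329 higher (2.34%) and 668 lower (4.75%). An exact permutation test of a single gene over the 6 drugs cannot go below p = 0.0667.

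The called genes were also set beside the untreated day-7 level. The 6 libraries lay above all day-7 libraries in 70 of the 77 higher genes and below them in 72 of the 84 lower genes, against 18.9% and 20.2% of all genes tested. The 12 libraries of the other drugs overlapped with day-7 cells in 62 and 63 of these genes, respectively, against 83% of all genes tested. The genes had been called on the levels of the 6 libraries, so their distance from day-7 cells partly follows from the call.

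Genes of sterol synthesis, regulation, and uptake made up 12 of the 77 higher genes. Their lists held 10, 12, and 14 of the 14303 genes tested. In the arm from acetyl-CoA to squalene, 5 of 10 genes were called higher and 0 lower. All 10 differences were positive, with a median of 1.24. Over all genes tested, 0.538% were called higher, 7031 of 14303 were positive, and the median was -0.01. In all 8 drug pairs 6 of the 10 were higher, against 2.36% of all genes tested. Without ND-646 replicate 1, 4 were called and 4 were higher in all 8 pairs. The upstream bases of 3 called genes of cholesterol synthesis and transport are shown. Those of SREBF2, which encodes the SREBP of sterol synthesis and was not called, are shown beside them. The bases come from the RefSeq promoter table (GRCh38.p14), written 5′ to 3′ along the gene. Capitals mark CCAAT, the box bound by NF-Y, or its reverse complement ATTGG in the first 3, and the sterol regulatory element TCACNCCAC in SREBF2. Whether these motifs act on the genes was not tested. Each gene shown holds a match, and SREBF2 holds the 1 match to TCACNCCAC among 28 windows of sterol genes. Stretches hold only bases before the outermost annotated gene start, so FDPS shows 1 of the 3 matches in its window. The windows are chr1:155308616-155308747 (+) for FDPS, chr4:165327419-165327666 (+) for MSMO1, chr5:111512591-111512785 (-) for STARD4, and chr22:41832855-41833104 (+) for SREBF2.
FDPS: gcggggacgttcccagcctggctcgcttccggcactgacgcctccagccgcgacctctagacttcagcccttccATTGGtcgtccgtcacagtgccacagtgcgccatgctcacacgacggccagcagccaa
MSMO1: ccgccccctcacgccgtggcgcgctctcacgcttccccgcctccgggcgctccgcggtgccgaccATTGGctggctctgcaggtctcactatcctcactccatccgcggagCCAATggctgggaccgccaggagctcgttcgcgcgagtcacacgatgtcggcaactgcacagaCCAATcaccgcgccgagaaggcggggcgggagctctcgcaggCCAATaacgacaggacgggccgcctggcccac
STARD4: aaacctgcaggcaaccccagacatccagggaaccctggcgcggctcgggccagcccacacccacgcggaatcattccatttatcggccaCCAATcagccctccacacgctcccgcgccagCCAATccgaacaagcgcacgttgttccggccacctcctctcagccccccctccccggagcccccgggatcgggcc
SREBF2: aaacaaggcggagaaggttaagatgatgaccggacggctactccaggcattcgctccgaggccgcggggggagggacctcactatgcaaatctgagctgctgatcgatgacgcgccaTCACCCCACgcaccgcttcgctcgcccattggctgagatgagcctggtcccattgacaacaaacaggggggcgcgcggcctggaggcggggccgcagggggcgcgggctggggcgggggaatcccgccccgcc

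Promoter windows of 300 bases (250 before to 50 after the start) were held for 28 of the sterol synthesis, regulation and uptake genes tested. CCAAT, searched on both strands, was in 17 of these 28 windows (60.7%), in 6 of the 8 windows of called sterol genes (75%), in 33.3% of the 57 windows of all genes called higher, and in 36.9% of the 10478 windows of tested genes. TCACNCCAC was in 1 of the 28 (SREBF2), in 0 of the 8 and 0 of the 57, and in 1.05% of all windows. The motifs were searched separately, so matches may overlap, and a match describes the letters only.

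FDPS, which makes farnesyl diphosphate (chromosome 1, 155278539 to 155290457, GRCh37), stood at 1361, 361, and 681 CPM in the ND-646 libraries and 1157, 494, and 720 CPM in the TVB-3166 libraries. The 12 libraries of the other drugs ranged from 134 to 262 CPM (median 177), so the classes did not overlap. The difference was 2.06 ± 0.20 (adjusted p = 0.0203), and 1.82 (adjusted p = 0.0342) without ND-646 replicate 1. IDI1, an isomerase of the isoprenoid units, ranged from 414 to 967 CPM (median 659) in lipogenesis inhibitor cells and from 184 to 313 CPM (median 242) with the other drugs, a difference of 1.49 ± 0.19 (adjusted p = 0.0286). FDFT1, which makes squalene, was higher by 1.20 ± 0.15 (adjusted p = 0.0246). MVD, the decarboxylase before IDI1, was called at 1.60 ± 0.24 (adjusted p = 0.0324), but its classes overlapped and its call was lost without ND-646 replicate 1 (adjusted p = 0.064). HMGCS1 (1.30, adjusted p = 0.0682) and ACAT2 (1.29, adjusted p = 0.0835) did not pass over drugs.

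In the arm from squalene to cholesterol, 2 of 12 genes were called higher and 0 lower (median 0.75, 11 positive), and 4 were higher in all 8 pairs. The shares of all genes tested were 0.538% called higher and 2.36% higher in all 8 pairs. MSMO1, the methylsterol monooxygenase (chromosome 4, 166248819 to 166264316, GRCh37), ranged from 286 to 667 CPM (median 469) in lipogenesis inhibitor cells and from 117 to 211 CPM (median 151) in the others, without overlap. Its difference was 1.62 ± 0.16 (adjusted p = 0.0203), and the other drugs were themselves above untreated day-7 cells. SQLE, which epoxidizes squalene, was higher by 1.01 ± 0.18 (adjusted p = 0.0446), a call lost without ND-646 replicate 1 (0.89, adjusted p = 0.0714). CYP51A1 (0.96, adjusted p = 0.0366) and DHCR7 (0.67, adjusted p = 0.045) passed the adjusted p and not the 2-fold threshold. LBR (-0.33, adjusted p = 0.537) was the 1 gene of this arm with a negative difference.

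Among regulators of SREBP and genes of cholesterol uptake and transport, 5 of 14 were called higher and 0 lower (median 0.39). The shares of all genes tested were 0.538% and 0.587%. STARD4, a carrier of cholesterol between membranes, was measured at 87.6, 88.2, and 123 CPM with ND-646 and at 140, 131, and 143 CPM with TVB-3166, while the other drugs ranged from 25.8 to 47.0 CPM. The difference was 1.81 ± 0.19 (adjusted p = 0.0214). INSIG1, which retains SREBP in the endoplasmic reticulum, ranged from 194 to 443 CPM against 63.2 to 148 CPM (1.71 ± 0.25, adjusted p = 0.0303). NPC2, which hands cholesterol out of lysosomes, was higher by 1.23 ± 0.18 (adjusted p = 0.03). SREBF1 was higher by 1.22 ± 0.22 (adjusted p = 0.0446, and 0.0519 without ND-646 replicate 1), whereas SREBF2 was not called (0.44, adjusted p = 0.113). SCAP, the escort of SREBP, showed no measurable shift (adjusted p = 0.991).

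**Figure D1:**
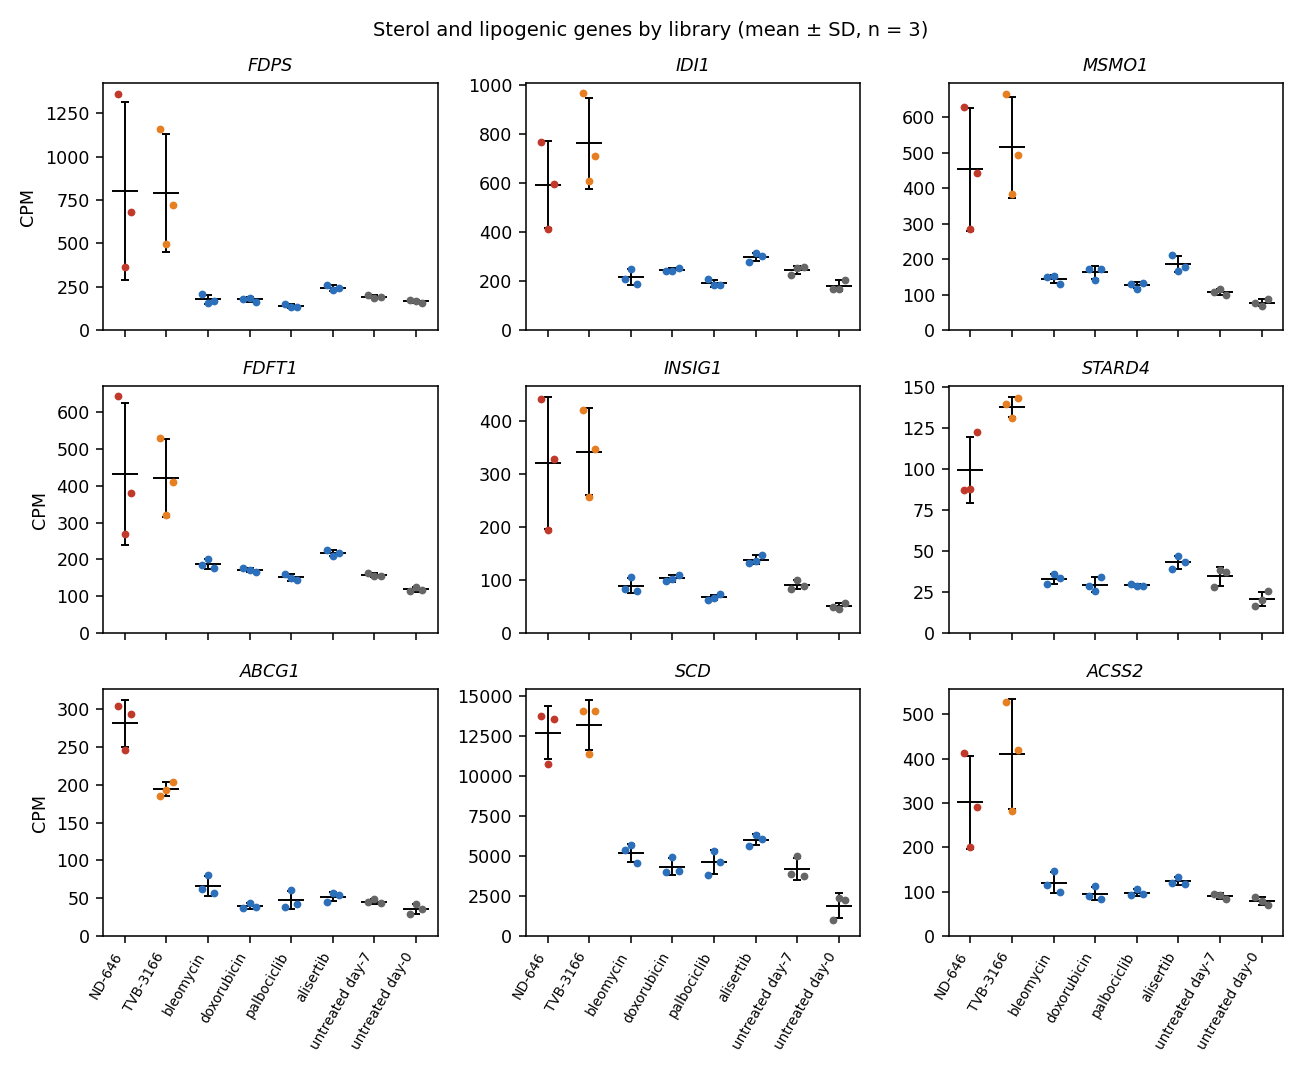
CPM (y axis, linear from 0) of 9 sterol and lipogenic genes in each library of the 8 groups (x axis), with the mean and SD of 3 libraries. For each of the 9 genes all 6 lipogenesis inhibitor libraries (red and orange) lay above the 12 libraries of the other drugs (blue), as for ABCG1 with 186 to 304 CPM against 37.4 to 80.8 CPM. The 9 are called genes, so this largely follows from their choice. Of the genes from acetyl-CoA to squalene, 5 of 10 lay above all 12 libraries, and of those from squalene to cholesterol, 3 of 12. MVD and HMGCS1, not shown, overlapped.

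Of 10 LXR receptors and targets, 1 was called higher and 0 lower (median 0.71), and 3 were higher in all 8 pairs. Over all genes tested the shares were 0.538%, 0.587%, and 2.36%, respectively. ABCG1, which exports sterols (chromosome 21, 43619799 to 43717354, GRCh37), was measured at 304, 246, and 294 CPM with ND-646 and at 186, 194, and 204 CPM with TVB-3166. The other drugs ranged from 37.4 to 80.8 CPM (median 49.8) and untreated cells from 29.6 to 48.8 CPM. The difference was 2.20 ± 0.21 (adjusted p = 0.0203). LPCAT3, which puts polyunsaturated chains into phospholipids, was higher at an adjusted p of 0.0279 with a difference of 0.96 ± 0.12, just under 2-fold. ABCA1, which loads cholesterol onto apolipoproteins, did not pass over drugs (1.52 ± 0.41, adjusted p = 0.0969), although its 6 libraries (7.31 to 24.3 CPM) lay above the 12 others (1.97 to 6.60 CPM).

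Fatty acid synthesis genes were called in both directions. Of 12, 1 was called higher and 1 lower, against 0.538% and 0.587% of all genes tested, with a median of 0.43. ACSS2, which makes acetyl-CoA from acetate, ranged from 201 to 528 CPM (median 351) in lipogenesis inhibitor cells and from 84.4 to 148 CPM (median 110) in the others, a difference of 1.68 ± 0.17 (adjusted p = 0.0203). OLAH, the thioesterase that releases medium chains from FASN, was measured at 0.0850 to 0.679 CPM against 2.42 to 7.25 CPM, a difference of -4.17 ± 0.52 (adjusted p = 0.0246). The mRNAs of the inhibited enzymes were not called by edgeR's quasi-likelihood test. FASN ranged from 11358 to 17651 CPM against 4964 to 9435 CPM, without overlap and higher in all 8 pairs, but missed the adjusted threshold over drugs (1.02 ± 0.24, adjusted p = 0.0748). DESeq2 called it higher (adjusted p = 0.000174), and limma did not (adjusted p = 0.116). ACACA (0.40, adjusted p = 0.129) and ACACB (-1.07, adjusted p = 0.323) overlapped between the classes. Of 13 desaturases, elongases, and acyl-CoA synthetases, SCD, which desaturates stearoyl-CoA, was the 1 called gene, a call that limma on drug means did not make. It ranged from 10799.6 to 14118 CPM against 3847 to 6334 CPM (1.35 ± 0.20, adjusted p = 0.0324).

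A few targets of PPARs were lower in lipogenesis inhibitor cells, and most members of the list were not called. Of 19 PPAR receptors and targets tested (25 were listed), 3 were called lower and 0 higher (median -0.29). In all 8 pairs 5 were lower, and the same counts were found without ND-646 replicate 1. Of all genes tested, 0.587% were called lower and 2.15% were lower in all 8 pairs. ANGPTL4 (chromosome 19, 8428173 to 8439254, GRCh37) was measured at 0.468, 0.393, and 0.421 CPM with ND-646 and at 0.334, 0.474, and 0.308 CPM with TVB-3166. The other drugs ranged from 7.95 to 19.4 CPM (median 10.7) and untreated cells from 6.04 to 16.2 CPM, so the 6 lipogenesis inhibitor libraries lay below the untreated range. The difference was -4.92 ± 0.38 (adjusted p = 0.0203). SLC25A34, a mitochondrial carrier, ranged from 0.167 to 0.376 CPM against 2.08 to 3.67 CPM (-3.55 ± 0.33, adjusted p = 0.0203). CPT1A, the carnitine palmitoyltransferase of the outer mitochondrial membrane, ranged from 84.5 to 126 CPM against 192 to 327 CPM (-1.20 ± 0.19, adjusted p = 0.0341). In bulk RNA, a lower level in every cell and fewer cells with the transcript cannot be told apart.

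PDK4, the kinase that shuts pyruvate dehydrogenase, was lower in all 8 pairs but missed the threshold over drugs (-3.48 ± 0.72, adjusted p = 0.0571). It ranged from 0.444 to 1.86 CPM in lipogenesis inhibitor cells, and the other drugs (4.68 to 36.4 CPM) were also above untreated day-7 cells. Of 13 genes of pyruvate dehydrogenase and its regulators, 1 was called higher and 0 lower, against 0.538% and 0.587% of all genes tested. PDP1, the phosphatase that activates the complex, ranged from 3.49 to 8.04 CPM against 1.68 to 2.87 CPM (1.33 ± 0.22, adjusted p = 0.039). MPC1, a subunit of the mitochondrial pyruvate carrier, reached 0.90 ± 0.15 (adjusted p = 0.0387, and 0.0628 without ND-646 replicate 1). SLC16A1, the monocarboxylate transporter, was the 1 called gene of 22 in glycolysis and transport and was lower, at 8.26 to 16.3 CPM against 23.9 to 48.8 CPM (-1.64 ± 0.25, adjusted p = 0.0342). Of 21 genes of triglyceride synthesis and lipid droplets, 0 were called over drugs by edgeR's quasi-likelihood test and 0 moved in all 8 pairs. At an unadjusted p under 0.05, 4 of them differed, and limma and DESeq2 called 0.

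**Figure D2:**
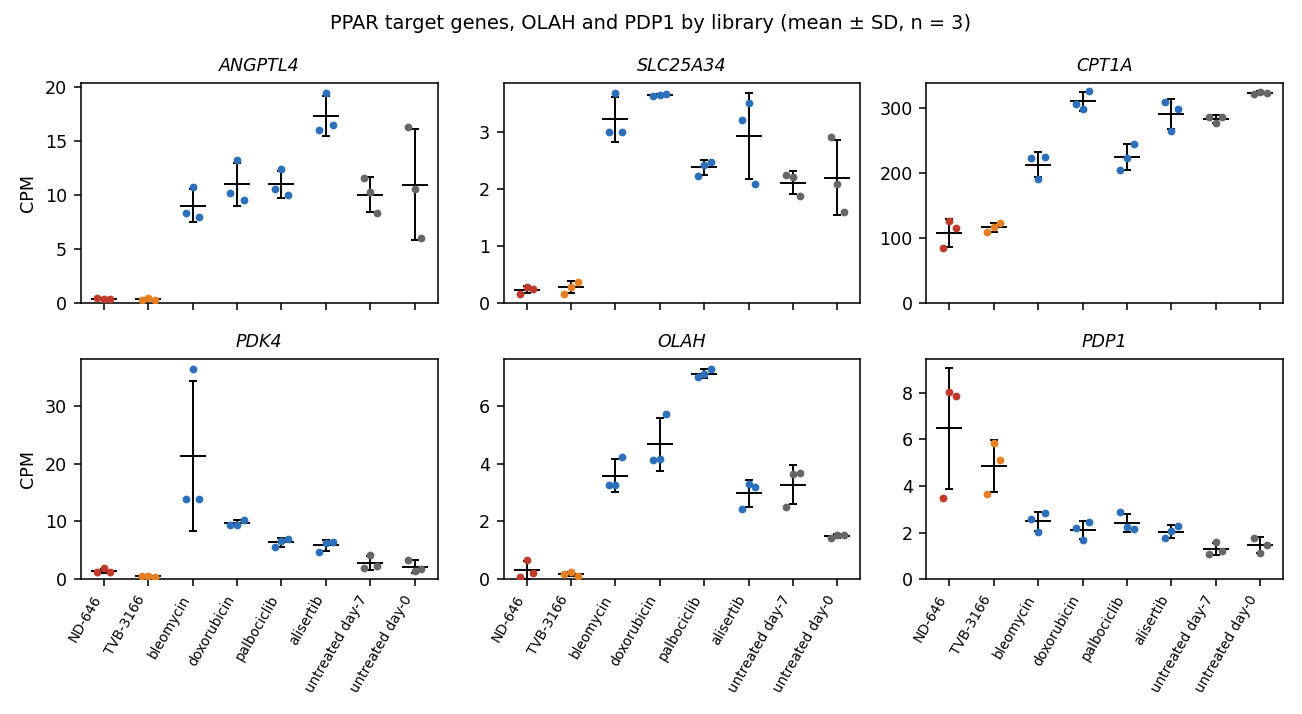
CPM (y axis, linear from 0) of 4 PPAR target genes, OLAH, and PDP1 in each library of the 8 groups (x axis), with the mean and SD of 3 libraries. ANGPTL4 was at most 0.474 CPM in all 6 lipogenesis inhibitor libraries and at 6.04 CPM or more in all others.

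Proliferation genes were lower in lipogenesis inhibitor cells on average, and few passed the test over drugs. For comparison, 7272 of all 14303 genes tested were negative, 0.587% were called lower, and 2.15% were lower in all 8 pairs. All 20 genes of homologous recombination were negative (median -1.17) and 1 was called, XRCC2, a factor of this repair pathway, with 1.74 to 4.62 CPM against 5.97 to 15.2 CPM (-1.71 ± 0.27, adjusted p = 0.0363). All 20 genes of replication licensing and origin firing were negative (median -1.08) and 0 were called by edgeR's quasi-likelihood test, with 10 at an unadjusted p under 0.05, 0 by limma, and 9 by DESeq2. In the S phase list 45 of 46 were negative (median -0.80) and edgeR's quasi-likelihood test called 0, with 20 at an unadjusted p under 0.05, 0 by limma, and 14 by DESeq2. The G2/M list was negative in 52 of 54 (median -0.87), with ANP32E, a histone chaperone, called lower (-1.14, adjusted p = 0.048, and 0.0576 without ND-646 replicate 1). In all 8 pairs 1, 2, 3, and 1 genes of these lists were lower, respectively. Against untreated day-7 cells, the S phase median was -2.03 with ND-646, -1.44 with TVB-3166, -1.39 with bleomycin, -1.19 with palbociclib, -0.54 with doxorubicin, and -0.27 with alisertib. TVB-3166 thus stood beside bleomycin, and alisertib and doxorubicin stood nearest to untreated cells. Without bleomycin, 6 S phase and 4 G2/M genes, 6 of homologous recombination, and 6 of licensing were called lower.

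MYC, the growth-driving transcription factor, ranged from 79.3 to 98.9 CPM in lipogenesis inhibitor cells and from 157 to 246 CPM with the other drugs (-1.04 ± 0.12, adjusted p = 0.0241). It was the 1 called gene of 30 linked to MYC and ribosome biogenesis, of which 27 were negative (median -0.44). Of all genes tested, 0.587% were called lower and 7272 of 14303 were negative. In the list, 8 genes were lower in all 8 pairs, against 2.15% of all genes tested. Another count, of genes below the other drugs without overlap, was 11 of 30, against 3.38% of all genes tested. POLR1A and POLR1B, subunits of RNA polymerase I, reached -0.58 (adjusted p = 0.0391) and -0.61 (adjusted p = 0.0498), under 2-fold. Of 7 CDK inhibitor genes 0 were called by edgeR's quasi-likelihood test and limma, 1 was called lower by DESeq2, and 3 had an unadjusted p under 0.05. CDKN1A (p21) ranged from 30.5 to 86.5 CPM against 9.45 to 39.0 CPM, with overlap (1.05 ± 0.38, adjusted p = 0.164), and CDKN2B (p15) from 17.3 to 27.8 CPM against 24.9 to 87.4 CPM (-1.37 ± 0.41, adjusted p = 0.114).

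In the integrated stress response, the program of ATF4 that follows amino acid shortage and other stresses, 22 of 24 genes were positive (median 0.82) and 1 was called. Of all genes tested, 7031 of 14303 were positive and 0.538% were called higher. SESN2, an inhibitor of mTORC1, reached 1.27 ± 0.21 (adjusted p = 0.039), with 27.9 to 59.7 CPM against 12.4 to 35.4 CPM and overlap. ATF4 (0.96, adjusted p = 0.0323) and PSAT1, a serine synthesis enzyme (0.85, adjusted p = 0.0398), passed without reaching 2-fold. Bleomycin cells held part of this program, with a median of 0.70 against day-7 cells beside 1.08 with ND-646 and 0.59 with TVB-3166, and 11 of the 24 were called higher when bleomycin was left out. Of 19 NRF2 targets 0 were called by edgeR's quasi-likelihood test and limma and 1 by DESeq2 (median 0.39, 6 at an unadjusted p under 0.05), and edgeR called 4 without bleomycin. The same test called 0 of 20 genes of the unfolded protein response (median 0.11), as did limma and DESeq2, with 3 at an unadjusted p under 0.05.

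Immune gene lists held few calls between the classes, beside 0.538% called higher and 0.587% called lower over all genes tested. Only 27 of 42 listed interferon-stimulated genes and 17 of 27 listed NF-kB targets were in the count table. Its lowest count is 1, and the missing members could not be tested. Of 27 interferon-stimulated genes, 1 was called higher (ISG20, a 3′ to 5′ exonuclease, 1.16 ± 0.20, adjusted p = 0.0435, and 0.0898 without ND-646 replicate 1), and the median was -0.21. Their median against day-7 cells was 2.79 with bleomycin, 1.55 with doxorubicin, 1.49 with TVB-3166, 0.80 with ND-646, 0.70 with alisertib, and 0.26 with palbociclib, so both lipogenesis inhibitors fell inside the range of the other drugs. Of 17 NF-kB targets and 14 genes of MHC class I presentation, 0 were called by edgeR's quasi-likelihood test. At an unadjusted p under 0.05, 5 and 2 genes of these lists differed, limma called 0, and DESeq2 called 2 and 0. CCL22, a chemokine, ranged from 24.9 to 43.4 CPM against 3.37 to 18.6 CPM and was higher in all 8 pairs, yet missed the threshold over drugs (1.87 ± 0.52, adjusted p = 0.102). Of 21 p53 targets 1 was called, BBC3, and of 14 BCL-2 family genes BBC3 and BIK were called. Both encode BH3-only proteins that promote apoptosis. BBC3 (PUMA) ranged from 13.5 to 28.95 CPM against 4.28 to 11.97 CPM (1.57 ± 0.27, adjusted p = 0.0422) and BIK from 10.3 to 16.8 CPM against 3.60 to 7.01 CPM (1.34 ± 0.24, adjusted p = 0.0459). Both calls were lost without ND-646 replicate 1 (adjusted p = 0.054 and 0.0528), and both genes were higher in all 8 pairs.

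**Figure D3:**
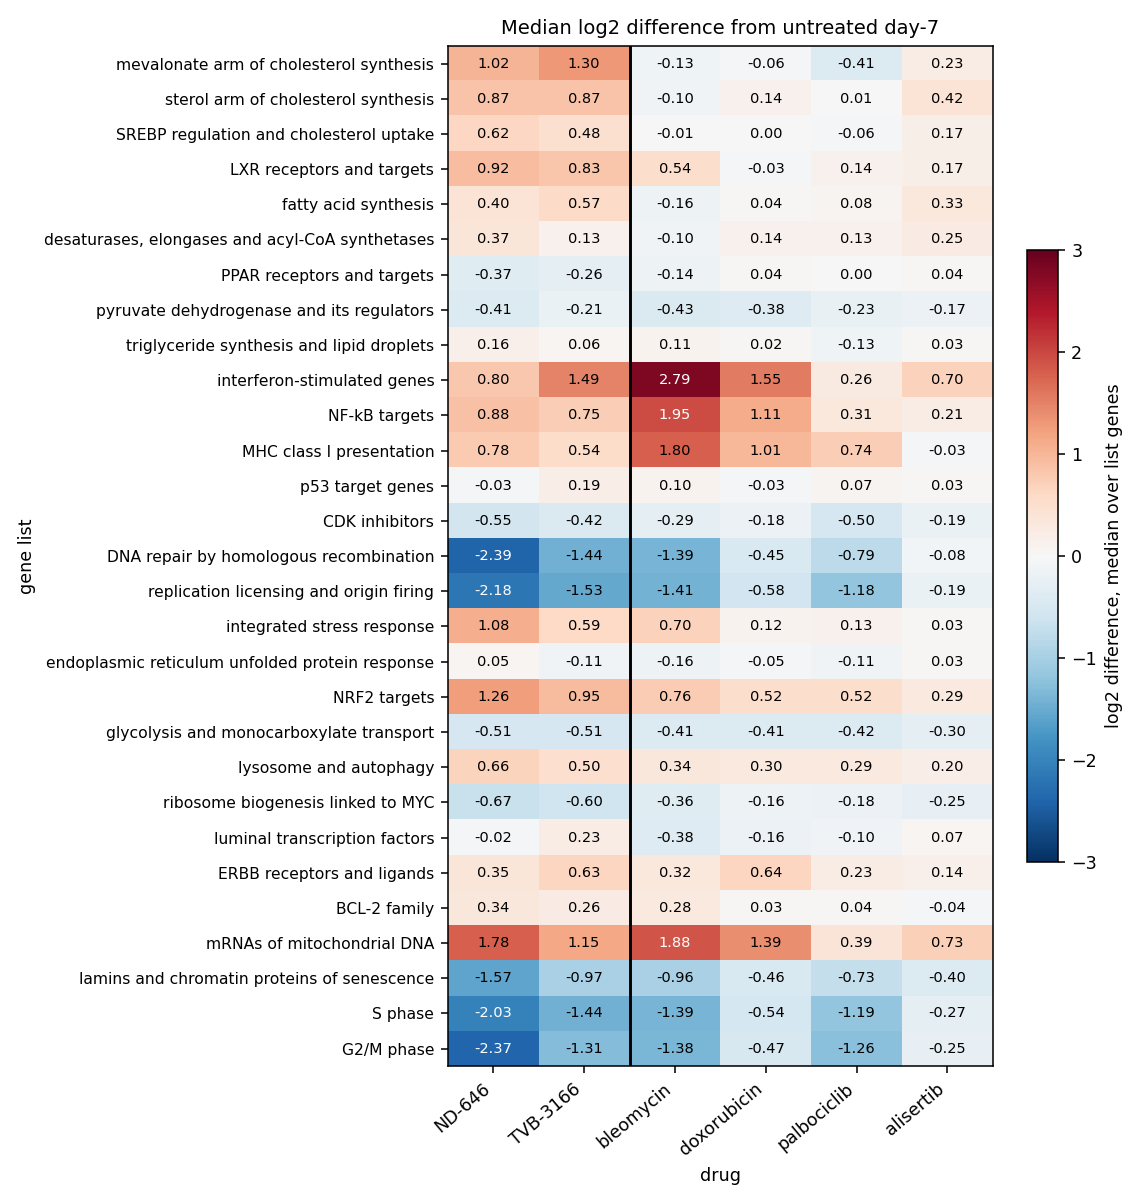
Median log2 difference from untreated day-7 cells over the genes of each list (rows) for each drug (columns), with lipogenesis inhibitors left of the black line; the 6 columns share the same day-7 libraries. The mevalonate arm stood at 1.02 and 1.30 with ND-646 and TVB-3166 and between -0.41 and 0.23 with the other drugs, whereas interferon-stimulated genes were highest with bleomycin (2.79).

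No call was made by edgeR's quasi-likelihood test among 30 lysosome and autophagy genes (median 0.19), 14 luminal transcription factors (median 0.14), 11 ERBB receptors and ligands, 11 lamins and chromatin proteins of senescence (median -0.48), or 13 mRNAs of mitochondrial DNA (median 0.31). At an unadjusted p under 0.05, 9, 3, 6, 4, and 0 genes of these lists differed, respectively, limma called 0, and DESeq2 called 1, 0, 1, 1, and 0. In all 8 pairs, 4 lysosomal genes were higher, against 2.36% of all genes tested. Among targets of the other drugs, AURKA (-1.19, adjusted p = 0.136), TOP2A (-0.83, adjusted p = 0.28), TOP2B (-0.31, adjusted p = 0.152), CDK4 (0.09, adjusted p = 0.694), and CDK6 (-0.03, adjusted p = 0.945) were not called by edgeR's quasi-likelihood test or limma. DESeq2 called AURKA lower (adjusted p = 0.0197) and none of the other 4.

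Among the largest higher genes outside these lists, S100P ranged from 340.5 to 1295 CPM against 37.7 to 145 CPM (2.77 ± 0.45, adjusted p = 0.0369). Its value was 2.40 (adjusted p = 0.0456) without ND-646 replicate 1, which held the highest level. ST6GALNAC2, which adds sialic acid to O-glycans, ranged from 9.61 to 22.3 CPM against 1.19 to 3.68 CPM (2.72 ± 0.31, adjusted p = 0.0231). TSPAN1, a tetraspanin of epithelial membranes, ranged from 189 to 436 CPM against 34.1 to 88.3 CPM (2.26 ± 0.18, adjusted p = 0.0203), and the other drugs lay below untreated day-7 cells. KLF2, a Krüppel-like transcription factor, BEX2, SGSM1, SCGB1D2, and C19orf33 completed the 10 largest with at least 5 mean CPM, at 2.50, 2.50, 2.08, 1.96, and 1.93. C19orf33 lost its call without ND-646 replicate 1 (1.63, adjusted p = 0.0635).

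Among the largest lower genes, GJA5 was measured at 0.638, 0.929, and 0.982 CPM with ND-646 and at 1.44, 1.39, and 0.786 CPM with TVB-3166, against 9.52 to 51.2 CPM with the other drugs and 18 to 48.6 CPM in untreated cells. The difference was -4.92 ± 0.67 (adjusted p = 0.0286). The lowest of the other drugs was alisertib, at 9.52 to 11.9 CPM. COL12A1, a fibril-associated collagen, ranged from 4.59 to 13.1 CPM against 23.9 to 118 CPM (-2.71 ± 0.49, adjusted p = 0.0464), and the other drugs were above day-7 cells. NPR3, the natriuretic peptide clearance receptor (-2.74), PROCR, the protein C receptor (-2.60), JPH2 (-2.40), and ACBD7 (-2.17) were lower as well. CYP1A2, a xenobiotic oxidase, was at -3.52 with the other drugs above day-7 cells, and UGT1A7, a glucuronosyltransferase, at -2.94 with the other drugs overlapping them. UGT1A7 shares exons with the other UGT1A genes, so its reads may be split among them. CCDC3 (-3.57), COL12A1, ACBD7, and UGT1A7 lost their calls without ND-646 replicate 1 (adjusted p = 0.0531 to 0.0574).

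Both lipogenesis inhibitors were also compared with each other, which shows where the class is not uniform. TVB-3166 cells differed from ND-646 cells in 305 genes (2.17% of 14052 tested), 222 higher (1.58%) and 83 lower (0.591%) in TVB-3166, in the fit of 18 libraries. With the replicate number as a block the count was 389, of which 302 were among the 305, and without the block it ranged from 162 (without TVB-3166 replicate 1) to 451 (without ND-646 replicate 3) when 1 library was left out. Of the 161 genes called between the classes, 3 were among them: S100P (-1.08, adjusted p = 0.042), BEX2 (-1.23, adjusted p = 0.0351), and DLG4 (1.09). LCN2, which binds iron carriers of bacteria, was measured at 144, 119, and 96.4 CPM with ND-646 and 12.2, 23.3, and 22.0 CPM with TVB-3166 (-2.65, adjusted p = 0.00137). TVB-3166 thus lay within the 3.27 to 61.3 CPM of the other drugs. CYP1A1, a target of the aryl hydrocarbon receptor, was lower in TVB-3166 (137, 194, and 184 CPM) than in ND-646 cells (888, 1229.6, and 884 CPM), with 480 to 1924 CPM in the other drugs (-2.55, adjusted p = 9.61e-05). The pannexin gene PANX2 (-2.26), LINC00880 (-2.18), and LRRC24 (-2.15) completed the 5 largest of this direction.

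In the opposite direction, LOC112694756 (4.01, adjusted p = 0.00608), the kinase gene MAPK4 (2.88, adjusted p = 0.00545), SLC18A2, a vesicular monoamine transporter (2.79, adjusted p = 0.000951), HNRNPA1P21 (2.58), and PLCD4, a phospholipase C (2.58), were higher with TVB-3166. MAPK4 was measured at 1.96, 0.572, and 2.0 CPM with ND-646 and 15.5, 7.12, and 10.7 CPM with TVB-3166. HNRNPA1P21 is named as a pseudogene of HNRNPA1, with which its reads may be shared. LOC112694756 spread from 17.1 to 381 CPM among the TVB-3166 libraries. Among sterol genes, FDPS differed by -0.04 (adjusted p = 0.958), FDFT1 by -0.05 (adjusted p = 0.916), and MSMO1 by 0.17 (adjusted p = 0.669). STARD4 (0.46, adjusted p = 0.0346), HMGCS1 (0.71, adjusted p = 0.0293), and ABCG1 (-0.54, adjusted p = 0.0465) passed the adjusted p without reaching 2-fold.

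**Figure D4:**
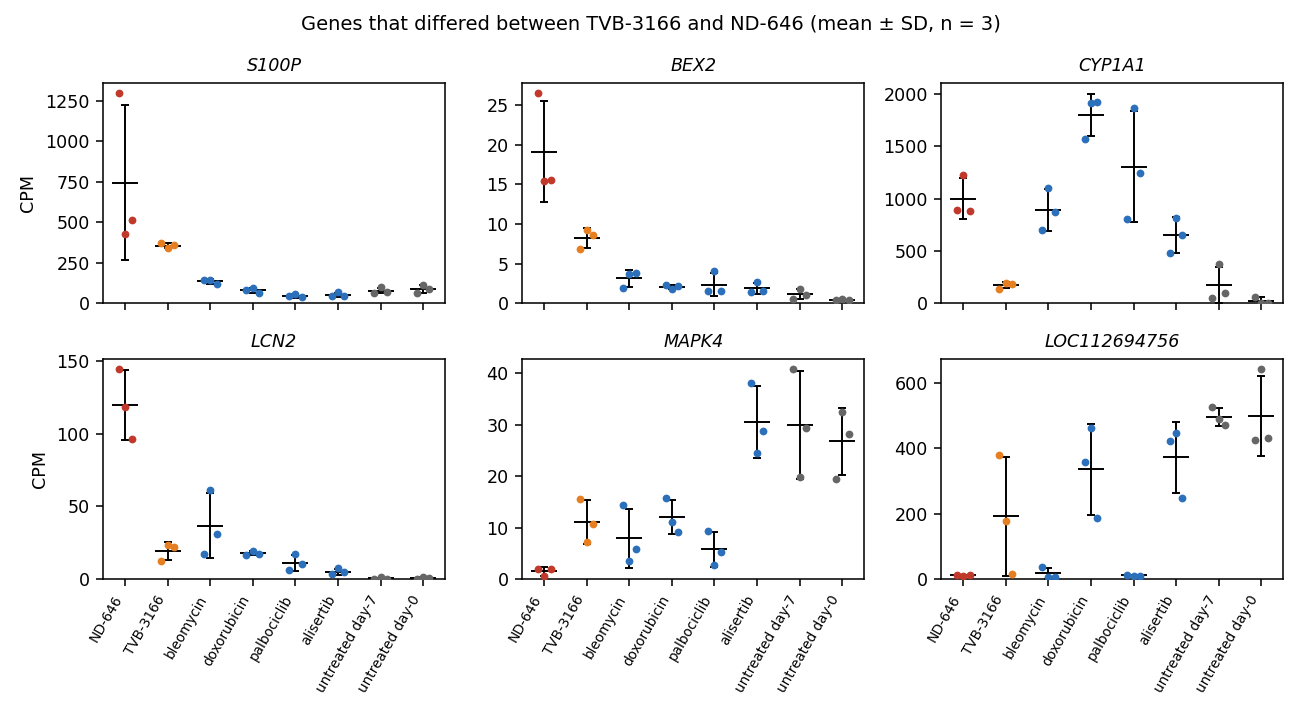
CPM (y axis, linear from 0) of 6 genes that differed between TVB-3166 and ND-646, in each library of the 8 groups (x axis), with the mean and SD of 3 libraries. S100P and BEX2 lay above the other drugs with both inhibitors, whereas LCN2 was at 96.4 to 144 CPM with ND-646 and at 12.2 to 23.3 CPM with TVB-3166.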

How the data were processed

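RNA-seq of SKBR3 cells was analysed from the count table of all 24 libraries. Reads had been aligned by the authors with HISAT2 (GRCh37) and assembled with StringTie, and the table the authors deposited holds raw read counts of each gene; counting settings, including strand, are not given in the sources used here. The labels name a stranded mRNA kit and the methods a total RNA kit. The table holds 14493 genes, and its lowest count is 1, so genes at 0 in a library were not analysed here. Groups were taken from the sample labels.

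Counts were summed per drug and tested with edgeR 4.0.16 (R 4.3.3; glmQLFit, glmQLFTest, 2-sided) after filterByExpr and TMM normalization, 2 drugs against 4, with 4 residual degrees of freedom. Library counts of the 18 treated libraries were fitted with 1 mean per drug for the 8 drug pairs, the class means, and TVB-3166 minus ND-646. Adjusted p-values are Benjamini-Hochberg values over all genes tested. CPM use 1 TMM scale over 24 libraries. Scripts were tested on simulated data. The members and the gene lists (S and G2/M phase from Seurat 5.3.0) were chosen with earlier results of these data known.

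Named genes are the 10 largest in each direction with an adjusted p under 0.05, at least 5 mean CPM in the higher class and no overlap, up to 4 called genes per list and direction (2 largest where none was called), drug targets, and the 5 largest per direction between inhibitors. HMGCS1, ACAT2, CYP51A1, DHCR7, LBR, SREBF2, SCAP, LPCAT3, ABCA1, PDK4, MPC1, POLR1A, POLR1B, ATF4, PSAT1, VWF, DLG4, and those of the closing observations were chosen after their values were seen. Some genes counted within the lists are not reported by name here. Alternatives were RLE size factors, other filters, no fold threshold, limma 3.58.1, DESeq2 1.42.0, the replicate block, and leaving out drugs or libraries. Neither labels nor methods say what a replicate number marks. Libraries of both inhibitors with the same number shared their deviations from the drug means (3 correlations of 0.204 to 0.371), so the count with the replicate number as a block is given beside that comparison, whose values come from the fit without it. Libraries held 29405121 counts or more, but genes with low levels rest on few reads: OLAH and LINC00880 fell to 2 counts, and FABP5 and SLC25A34 to 4, in their lowest treated library.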

Additional observations from a re-analysis of the deposited data

Results flagged for a closer look

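In 15 of 100 named genes, 1 of the 6 lipogenesis inhibitor libraries lay far from the rest: its gap to the nearest library, as a share of the whole range, was above Dixon's 95% critical value for 6 samples, which chance passes in about 1 in 20 groups. ND-646 replicate 1 was that library in 13 of the 15. By the same rule it lay alone in 2388 of all 14303 genes tested, and each other library in 23 to 59. Outliers were therefore not particular to the named genes. The critical value is for samples of 1 kind, whereas the 6 libraries came from 2 drugs. The shares were 0.768 for ANP32E, 0.657 for C19orf33, 0.836 for CCL22, 0.652 for CD63, 0.855 for CDK4, 0.645 for CPT1A, 0.634 for FTL, 0.789 for NPC2, 0.696 for S100P, 0.694 for SCGB1D2, 0.655 for SCGB2A2, 0.658 for UHRF1, and 0.756 for XRCC2. TVB-3166 replicate 2 was the lowest for MYC (0.79) and ND-646 replicate 2 the highest for OLAH (0.64).

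The effects of ND-646 and TVB-3166 differed, by the contrast of both drugs in the fit of 18 libraries with an adjusted p under 0.05 and at least 2-fold, in 20 named genes. On the log2 scale, TVB-3166 minus ND-646, the values were 1.55 for ACACB, -1.23 for BEX2, -1.04 for COX2, -2.55 for CYP1A1, -1.10 for FTH1, -1.51 for GDF15, 2.58 for HNRNPA1P21, -2.65 for LCN2, -2.18 for LINC00880, 4.01 for LOC112694756, -2.15 for LRRC24, 2.88 for MAPK4, 1.14 for ORC6, -2.26 for PANX2, -1.43 for PDK4, 2.58 for PLCD4, -1.08 for S100P, 2.79 for SLC18A2, 1.54 for TFAP2B, and 1.23 for TOP2A. BEX2 and S100P were higher in both inhibitors than in each other drug, and PDK4 was lower in both. CYP1A1, HNRNPA1P21, LCN2, LINC00880, LOC112694756, LRRC24, MAPK4, PANX2, PLCD4, and SLC18A2 were named as the largest differences of this same contrast. Their passing follows from that choice and is no separate result. Over all genes tested, 305 of 14052 (2.17%) passed the same thresholds in this contrast.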

How the results depend on the processing

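The 161 calls over drugs became 265 with no fold threshold, 490 without bleomycin, 0 without doxorubicin, 0 without palbociclib, 249 without alisertib, 1 against bleomycin and palbociclib only, 275 against doxorubicin and alisertib only, 604 by limma-voom with drug as a random block, and 667 by DESeq2. They stayed within 1.5 times with RLE scaling (157), limma on drug means (176), no filter on low counts (131), and a minimum of 10 counts in every library (135). Leaving out 1 library gave 87 (without bleomycin replicate 3) to 321 (without bleomycin replicate 2), with 94 without ND-646 replicate 1 and 103 without bleomycin replicate 1. The count over libraries (997) stayed within 1.5 times, leaving out 1 library giving 929 to 1086, except with no fold threshold (7042). The count in all 8 pairs (633) was 455 to 831 on leaving out 1 library and 734 by DESeq2. The difference between inhibitors (305) was 162 to 451 on leaving out 1 library and 364 by DESeq2. The cause of these shifts was not tested.

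With the replicate number as a block, the counts were 991 over libraries, 831 in all 8 pairs, and 389 between inhibitors. Between the classes, 18 of 24 same-numbered correlations were over 0.1 (-0.148 to 0.384), including all 3 in 4 of the 8 drug pairs, and in 17 of 24 comparisons a library correlated best with its own number. Since 6 did not reach 0.1 and no source says what a number marks, the classes were not taken as paired, though the values hint at shared numbers for some drugs. The block moved no count by over 1.5 times, and the 20 named genes that differed between inhibitors kept their calls.

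Directions reversed in uncalled genes: CDK6 (-0.03) was 0.14 without palbociclib, 0.20 against doxorubicin and alisertib only, and -0.12 to 0.093 on leaving out 1 library. Against bleomycin and palbociclib only, HNRNPA1P21 was 0.18 and LOC112694756 was 2.84, and SLC18A2 was -0.12 against doxorubicin and alisertib only. The lists without ND-646 replicate 1 or without single drugs were computed after the data were seen. A design with 6 drugs, doses that differ, and 1 cell line limits what the class comparison can show.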

Other observations

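Several called genes fell outside the lists and were chosen after their values were seen. The secretoglobin SCGB2A2 (mammaglobin A), a secreted protein of breast epithelium, ranged from 3003 to 6587 CPM in lipogenesis inhibitor cells and from 602 to 2060 CPM with the other drugs, a difference of 1.84 ± 0.30 (adjusted p = 0.0369, and 0.0531 without ND-646 replicate 1). SCGB1D2, which pairs with it, ranged from 88.9 to 211 CPM against 16.2 to 44.1 CPM (1.96 ± 0.21, adjusted p = 0.0214). Both were above untreated day-7 cells in both classes. DUSP6, a phosphatase of ERK, ranged from 13.4 to 22.9 CPM against 2.70 to 8.56 CPM (1.82 ± 0.30, adjusted p = 0.0386).

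Other called genes were lower, again chosen after their values were seen. COL5A1, a chain of type V collagen, ranged from 1.66 to 3.15 CPM against 4.15 to 13.7 CPM (-1.90 ± 0.23, adjusted p = 0.0243). HSPG2, the basement membrane proteoglycan perlecan, ranged from 20.6 to 55.3 CPM against 66.7 to 167 CPM (-1.47 ± 0.17, adjusted p = 0.0243), and LAMB1, a laminin chain, from 88.3 to 117 CPM against 124 to 245 CPM (-1.01 ± 0.13, adjusted p = 0.0246). FABP5, a fatty acid carrier, ranged from 0.143 to 0.234 CPM against 0.670 to 1.78 CPM (-2.70 ± 0.33, adjusted p = 0.0243). H19, an imprinted non-coding RNA, ranged from 0.357 to 1.33 CPM against 2.32 to 7.10 CPM (-2.51 ± 0.41, adjusted p = 0.0382). Untreated cells held 40.7 to 109 CPM of H19, so it was below them with all 6 drugs.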
